A study of Mus musculus with 6 samples.

Results

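The genes described here are 32 genes that are often mutated in human myeloid malignancy besides the cohesin genes, read in mouse marrow labelled Stag2KO or Stag2WT. They were taken by gene symbol from a given list, and all 32 were among the 33924 genes listed in the deposited table. They fall into 6 classes. DNA methylation holds Tet2, Dnmt3a, Idh1 and Idh2, and Polycomb and histone modification holds Asxl1, Asxl2, Ezh2, Suz12, Eed, Phf6, Bcor, Bcorl1, Kdm6a and Setd2. RNA splicing holds Srsf2, Sf3b1, U2af1, Zrsr2, Prpf8 and Ddx41, and signalling holds Nras, Ptpn11, Cbl, Nf1, Jak2, Sh2b3 and Calr. The p53 path holds Trp53 and Ppm1d, and the last class holds the transcription factor genes Etv6 and Wt1 and the nucleolar gene Npm1. The question was which of these genes differed in RNA level between the genotypes.

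RNA was sequenced from 3 libraries labelled Stag2KO and 3 libraries labelled Stag2WT, all from mouse bone marrow depleted of lineage-positive cells on magnetic beads. Not given in the sources used here were the allele, the promoter of any Cre, the strain, the age and the number of animals. Because nothing says that the libraries of a group came from separate animals, p-values measure the spread between these samples, which may be technical. All values come from marrow that is a mixture of cells, so for every result that follows, fewer cells of a type and less RNA per cell cannot be told apart.

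Myeloid leukaemia and myelodysplasia arise in blood stem and progenitor cells that carry several mutations, and Stag2, a subunit of the cohesin ring that holds sister chromatids and forms chromatin loops, is itself one of the genes hit. The partner mutations recur in a few kinds of gene: enzymes that add, remove or limit the removal of DNA methylation, Polycomb proteins that write and read repressive histone marks, splicing factors that recognise the end of an intron or an exon, cytokine and RAS signalling proteins, and the p53 path. Patients are grouped by which of these genes are mutated, but the RNA of each gene is also made in unmutated marrow, and that RNA is what was counted here.

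Stag2 itself was read first, as a check of the labels. It had 169.1, 186.6 and 183.1 CPM (reads of the gene after scaling all libraries to the same size) in the Stag2KO libraries, against 338.0, 328.6 and 323.9 CPM in the Stag2WT libraries. Its log2 fold change was -0.88 (SE 0.06, adjusted p = 0.000278 in edgeR's quasi-likelihood test), so 0.544 of the Stag2WT level was still counted. Libraries held 29435651 to 37722325 gene reads in Stag2KO and 33800670 to 36976756 in Stag2WT, and the share of the table total outside annotated genes was 11.1% to 12.8% in Stag2KO, against 8.81% to 10.1% in Stag2WT. Marker lists of 9 cell types that such marrow can hold were read too, and every gene of these lists was read highly enough to be tested. Stem and progenitor markers, the cells the depletion is meant to leave, summed to 580.5 to 707.9 CPM in Stag2KO and 513.6 to 633.7 CPM in Stag2WT, and neutrophil markers to 17900 to 24420 CPM in Stag2KO and 15920 to 17210 CPM in Stag2WT. RNA of both lists was therefore present in all libraries, and which cells made it was not tested. Summed macrophage markers were 388.8 to 588.0 CPM in Stag2KO against 1561 to 1608 CPM in Stag2WT, with 13 of 14 called lower. B cell markers summed to 97.7 to 110.1 CPM in Stag2KO against 259.0 to 387.3 CPM in Stag2WT, with 11 of 11 called lower. Eosinophil markers summed to 3834 to 5910 CPM in Stag2KO against 1160 to 1742 CPM in Stag2WT, with 7 of 9 called higher. Of neutrophil markers 4 of 12 were called higher, of erythroid markers 5 of 12 lower, and of stroma markers 8 of 10 lower and 1 higher. Megakaryocyte markers had 2 of 7 called higher and stem and progenitor markers 3 of 9 higher, with summed levels that overlapped between the groups. T and natural killer markers had 1 of 10 called higher and 4 lower, and their sum was higher in Stag2KO while their median log2 fold change was -0.68. The part of these cell types in the results on the driver genes was not tested.

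**Figure D1:**
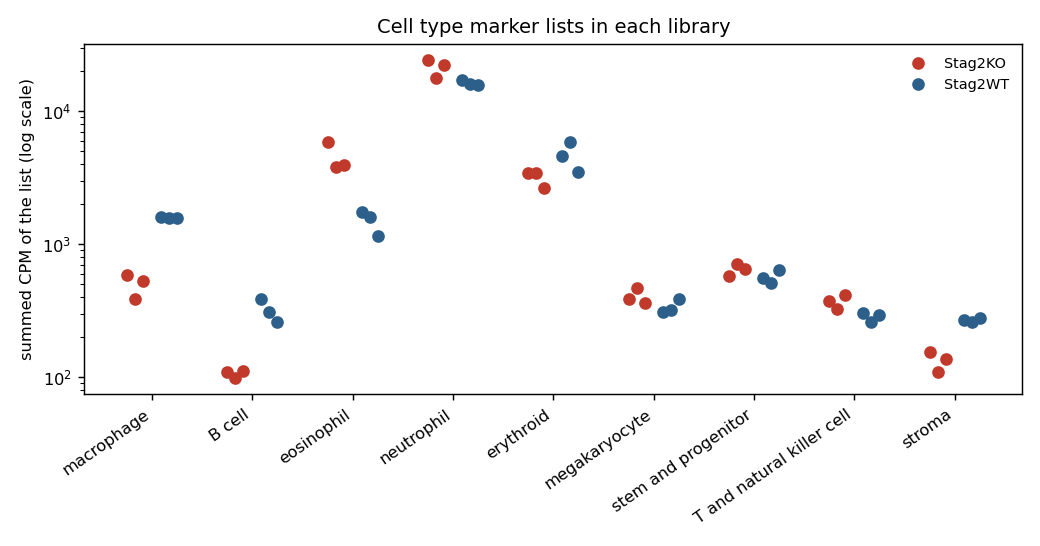
Summed CPM of 9 lists of cell type markers, 1 point per library, on a log axis, with Stag2KO libraries left of Stag2WT libraries in each list. Macrophage, B cell and stroma sums lie lower in all 3 Stag2KO libraries than in all 3 Stag2WT libraries and eosinophil sums higher, while megakaryocyte and stem and progenitor sums overlap.

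Of the 32 driver genes, 31 were read highly enough to be tested, and 9 of the 31 (29.0%) were called at an adjusted p under 0.05. Across all 15708 tested genes 3333 were called, which is 21.2%, and a fit restricted to the 10889 genes with at least 5 CPM in at least 3 libraries called 23.4%. Higher in Stag2KO were Etv6, Bcor and Asxl1, and lower were Ezh2, Suz12, Eed, Jak2, Npm1 and Idh1. That is 3 higher and 6 lower, where 10.7% of all tested genes were called higher and 10.5% lower. The changes were small: the median size of the called log2 fold changes was 0.30 for the driver genes, against 0.60 for all called genes. These sets were not matched for level, and the part of level in that gap was not tested. The median log2 fold change of the 31 tested driver genes was 0.01, as it was for all tested genes. Groups did not overlap for 17 of the 31 (54.8%), against 43.5% of all tested genes. These 17 were the 9 called genes and Tet2, Dnmt3a, Kdm6a, U2af1, Nras, Ptpn11, Trp53 and Ppm1d. The remaining gene of the 32, Wt1, which encodes a zinc finger transcription factor, had 0 reads in every library, and a count of 0 allows up to 3 reads, or 0.0786 to 0.103 CPM. The calls rest on a fit with genotype alone: with the share of unannotated reads added as a term, edgeR called 67 of the 15708 genes and 0 driver genes, with 1 driver gene at an unadjusted p under 0.05. That share was higher in every Stag2KO library than in every Stag2WT library, so the fit hardly separates it from genotype. The median SE of the driver genes was 0.146 in that fit and 0.0803 with genotype alone. Ezh2, Suz12, Jak2 and Npm1 stood at -0.34, -0.28, -0.40 and -0.40 with the added term. Etv6, Asxl1, Bcor and Eed were smaller in size than with genotype alone, at 0.30, 0.18, 0.07 and -0.04. Idh1 changed sign, to 0.0146.

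**Figure D2:**
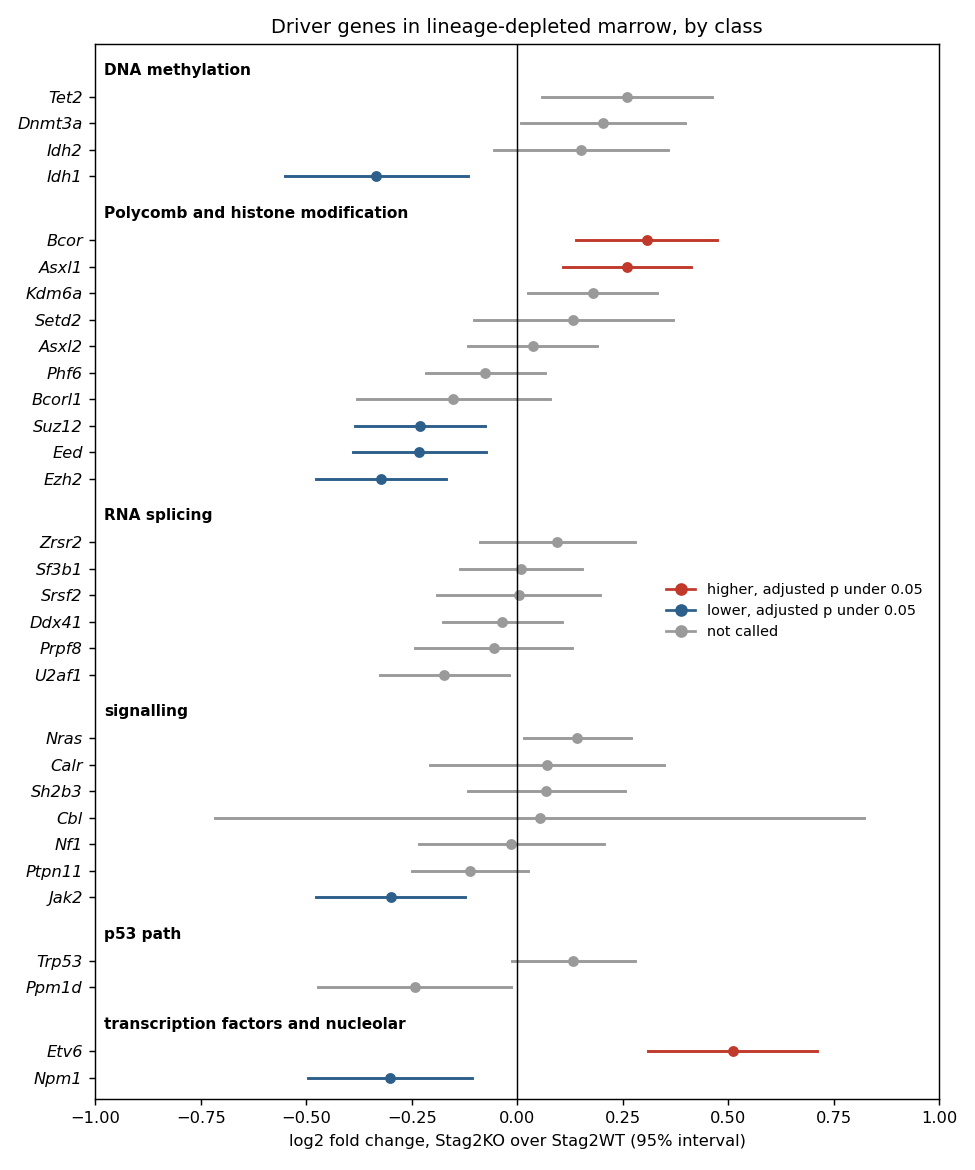
Log2 fold change of Stag2KO over Stag2WT with its 95% interval for the 31 tested driver genes, grouped by class and ordered by size within a class; red is called higher, blue called lower and grey not called. Etv6 at 0.51 lies farthest from 0, the 6 splicing genes all lie between -0.17 and 0.09, and Cbl has the widest interval.

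Levels per length ranged widely between the driver genes; they assume reads from whole transcripts, and the library kit is not known. On the scale of CPM divided by the length of the merged exons in kilobases (RPKM), the chaperone gene Calr was highest at 851.7 RPKM in Stag2KO and 810.9 RPKM in Stag2WT. Npm1 came next at 534.7 RPKM in Stag2KO and 658.7 RPKM in Stag2WT, followed by Srsf2 at 259.4 RPKM in Stag2KO and 258.7 RPKM in Stag2WT. The same genes held ranks 1 to 3 in both genotypes. Ezh2 stood at rank 9 in both, with 59.4 RPKM in Stag2KO and 74.3 RPKM in Stag2WT. Etv6 stood at rank 10 in Stag2KO with 47.9 RPKM and at rank 15 in Stag2WT with 33.6 RPKM. The lowest detected was Nf1, which encodes neurofibromin, a brake on RAS, at 2.51 RPKM in Stag2KO and 2.54 RPKM in Stag2WT. Even so, no tested driver gene had fewer than 840 reads in a library, where counting error alone is 3.45%.

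Polycomb and histone genes, the largest class with 10 of the 31 tested driver genes, held 5 of the 9 calls. Of all tested genes 21.2% were called, and whether calls gathered in this class was not tested. All 3 core genes of Polycomb repressive complex 2 (PRC2) were lower in Stag2KO, while Bcor and Asxl1 were higher. Ezh2 encodes the methyltransferase of PRC2, Suz12 the scaffold and Eed the subunit that binds the methyl mark the complex makes. Their promoters are shown because the 3 genes were called in the same direction. Each sequence runs 5′ to 3′ on the gene's strand from 250 bases before to 50 bases after the RefSeq start (assembly GRCm38.p6), and capitals mark matches on either strand to CCAAT, the letters bound by NF-Y, and TTCCCGC, a form of the E2F motif. Ezh2 lies at chr6:47594981-47595280 on the minus strand, Suz12 at chr11:79992856-79993155 on the plus strand and Eed at chr7:89980927-89981226 on the minus strand.
Ezh2: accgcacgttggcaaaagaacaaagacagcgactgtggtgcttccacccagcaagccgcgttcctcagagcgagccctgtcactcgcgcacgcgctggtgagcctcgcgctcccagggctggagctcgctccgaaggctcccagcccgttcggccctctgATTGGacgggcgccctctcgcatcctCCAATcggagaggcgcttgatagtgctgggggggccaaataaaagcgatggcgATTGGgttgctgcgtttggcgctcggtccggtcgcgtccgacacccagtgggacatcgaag
Suz12: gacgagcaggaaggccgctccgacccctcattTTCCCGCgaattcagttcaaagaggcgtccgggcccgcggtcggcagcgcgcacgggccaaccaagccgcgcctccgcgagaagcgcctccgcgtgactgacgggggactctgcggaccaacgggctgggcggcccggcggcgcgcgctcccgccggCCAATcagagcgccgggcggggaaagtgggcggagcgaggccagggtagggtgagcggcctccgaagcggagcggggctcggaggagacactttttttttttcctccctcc
Eed: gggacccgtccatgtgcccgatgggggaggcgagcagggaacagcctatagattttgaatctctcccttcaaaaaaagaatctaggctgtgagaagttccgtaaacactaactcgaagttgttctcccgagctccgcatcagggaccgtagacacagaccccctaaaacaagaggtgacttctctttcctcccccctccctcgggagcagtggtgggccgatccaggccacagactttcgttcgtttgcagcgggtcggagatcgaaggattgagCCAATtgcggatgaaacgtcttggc
The CCAAT letters occurred 3 times in the Ezh2 window and 1 time each in those of Suz12 and Eed, and the E2F letters 1 time, in Suz12. All 3 windows are rich in CpG, with 31 CpG in Ezh2, 41 in Suz12 and 17 in Eed, where the median of all promoters in the table is 7. The genes called higher lay above that median too, with 17 in Etv6, 21 in Bcor and 13 in Asxl1. CCAAT letters are common: 37.4% of 32851 promoters held them, and 41.1% of 27025 genes had such a promoter. Of the 29 driver genes with a promoter in the table, 12 (41.4%) had one, near the share of all genes. They included 4 of the 5 called lower and 0 of the 3 called higher, a split that was not tested. TTCCCGC was in 4.60% of all promoters, in a promoter of 5.29% of genes and in 4 of the 29 driver genes. These matches describe the letters of the window and are not binding sites.

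Ezh2 had 169.6, 170.7 and 159.0 CPM in Stag2KO, against 198.0, 222.8 and 203.6 CPM in Stag2WT. All 3 Stag2KO libraries lay below all 3 Stag2WT libraries, with means of 166.4 ± 6.42 CPM in Stag2KO and 208.1 ± 13.0 CPM in Stag2WT (SD, n = 3 each). The log2 fold change was -0.32 (SE 0.07, adjusted p = 0.0137 in edgeR's quasi-likelihood test), and of the 6 fits with 1 library left out it failed in the one without Stag2KO replicate 3 (0.0578). Suz12 had 186.7, 195.8 and 175.0 CPM in Stag2KO, against 214.1, 230.0 and 209.8 CPM in Stag2WT. Its log2 fold change of -0.23 (SE 0.07, adjusted p = 0.0441) lay near the threshold, and leaving out any library raised the adjusted p, to values between 0.0586 without Stag2KO replicate 2 and 0.165 without Stag2KO replicate 3. Eed had 83.7, 77.5 and 82.8 CPM in Stag2KO, against 94.6, 102.4 and 89.5 CPM in Stag2WT. Neither Suz12 nor Eed overlapped between the groups. For Eed the log2 fold change was -0.23 (SE 0.07, adjusted p = 0.0466). It was called without Stag2WT replicate 3 (0.0435) and lost without each other library, with adjusted p from 0.0826 without Stag2KO replicate 1 to 0.139 without Stag2KO replicate 2. Suz12 also missed the threshold with upper-quartile scaling (0.0569) and Eed with limma-voom (0.052).

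The opposite direction was seen for Bcor, which encodes a corepressor that assembles a variant Polycomb repressive complex 1 (PRC1). Bcor had 124.0, 138.3 and 121.8 CPM in Stag2KO, against 104.8, 97.0 and 108.6 CPM in Stag2WT. Every Stag2KO library was above every Stag2WT library, and the log2 fold change was 0.31 (SE 0.07, adjusted p = 0.022 in edgeR's quasi-likelihood test). Leaving out Stag2KO replicate 2 (0.0665) ended the call, as did leaving out replicate 1 (0.0531) or 2 (0.0565) of Stag2WT. Asxl1, a partner of the histone deubiquitinase Bap1, had 157.8, 164.7 and 164.9 CPM in Stag2KO, against 141.6, 125.1 and 140.4 CPM in Stag2WT. The groups did not overlap, with a log2 fold change of 0.26 (SE 0.07, adjusted p = 0.0286). Leaving out Stag2KO replicate 1, 2 or 3 ended the call, with adjusted p of 0.0568, 0.0786 and 0.0897. The other 5 genes of the class were not called. Kdm6a, a demethylase that removes the PRC2 mark, was at 0.18 on the log2 scale (95% interval 0.03 to 0.33, adjusted p = 0.0894), and Setd2, a methyltransferase that marks transcribed genes, at 0.13 (-0.10 to 0.37). Asxl2, the close relative of Asxl1, was at 0.04 (-0.12 to 0.19), Phf6, a chromatin-binding zinc finger protein, at -0.08 (-0.22 to 0.07), and Bcorl1, the relative of Bcor, at -0.15 (-0.38 to 0.08). Bcor was the single call among the 5 driver genes on the X chromosome, which are Phf6, Bcor, Bcorl1, Kdm6a and Zrsr2.

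**Figure D3:**
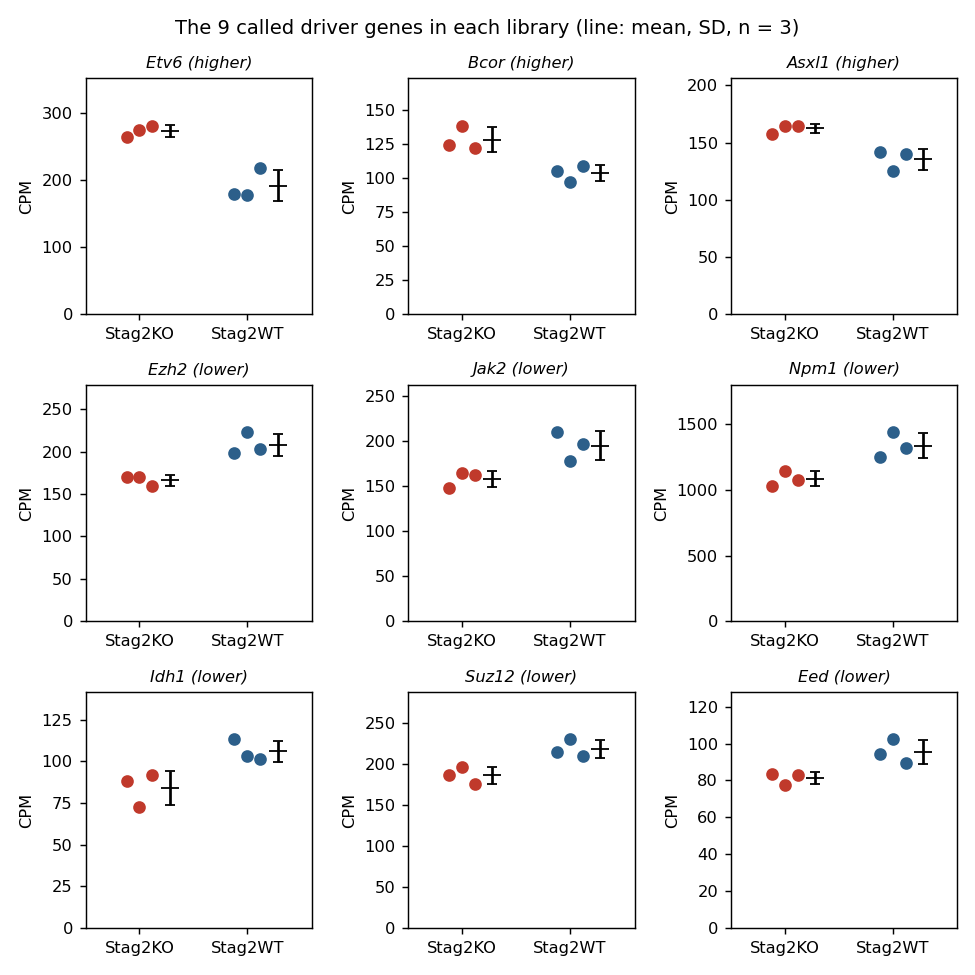
TMM-scaled CPM of the 9 called driver genes in each library, with Stag2KO left of Stag2WT and the mean with its SD (n = 3) beside each group; each panel has its own axis from 0. In every panel the 3 Stag2KO points lie on one side of the 3 Stag2WT points, above them for Etv6, Bcor and Asxl1 and below them for the other 6 genes.

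Of 33 tested genes that work with these proteins, in 4 lists, 6 were called (18.2%), against 21.2% of all tested genes, so the count sets nothing apart about them. Of 8 other PRC2 genes tested, 2 were called higher and 1 lower, with a median log2 fold change of 0.08. Ezh1, the other methyltransferase that PRC2 can carry, rose to 66.3 ± 4.38 CPM in Stag2KO, against 49.3 ± 2.99 CPM in Stag2WT (SD, n = 3 each; log2 fold change 0.43, SE 0.08, adjusted p = 0.00755 in edgeR's quasi-likelihood test), and was called with each library left out. Mtf2, an accessory subunit that brings PRC2 to CpG islands, was at 0.25 (adjusted p = 0.0278). Its call was lost in 4 fits, those without replicate 1 (0.0923) or 3 (0.084) of Stag2KO and those without replicate 1 (0.0869) or 2 (0.0613) of Stag2WT. Rbbp4, a histone-binding subunit shared with several complexes, was at -0.21 (adjusted p = 0.0451), and leaving out any library ended the call, with adjusted p up to 0.141 without Stag2KO replicate 3. Rbbp4 was also lost with upper-quartile scaling (0.0568) and with no filter beyond 1 read (0.0659). Of 8 genes of the Bcor complex, among them Ring1, Rnf2, Pcgf1 and Kdm2b, edgeR called 0 at a median of -0.10, with 5 at an unadjusted p under 0.05; DESeq2 called 1 lower (Usp7) and limma-voom 0. Of 8 tested partners of the Asxl proteins, 2 were higher and 1 lower, with a median of 0.08. Ogt, the enzyme that attaches N-acetylglucosamine to nuclear proteins, averaged 725.4 CPM in Stag2KO and 548.3 CPM in Stag2WT (adjusted p = 0.00552, log2 fold change 0.40) and stayed called whichever library was left out. Mbd6 was at 0.36 (adjusted p = 0.0163), a call lost without Stag2KO replicate 1 (0.0506) or Stag2WT replicate 2 (0.0515). The forkhead gene Foxk2 was at -0.29 (adjusted p = 0.0206) and was called with Stag2WT replicate 1 left out (0.0161) but with none of the other 5, where the adjusted p reached 0.066 without Stag2KO replicate 2. Of 9 genes of the complexes around Kdm6a, among them Kmt2c and Kmt2d, edgeR, DESeq2 and limma-voom each called 0, at a median of -0.06 and with 1 at an unadjusted p under 0.05.

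Among the 4 DNA methylation genes, Idh1 was the one called, and it was lower. Idh1 encodes the isocitrate dehydrogenase of the cytosol and makes the 2-oxoglutarate that Tet enzymes consume. It had 88.0, 72.5 and 91.8 CPM in Stag2KO, against 113.3, 103.5 and 101.2 CPM in Stag2WT. No Stag2KO library reached the lowest Stag2WT library, and the log2 fold change was -0.33 (SE 0.09, adjusted p = 0.0398 in edgeR's quasi-likelihood test). With the share of unannotated reads as a term the value turned to 0.0146. The call held without Stag2KO replicate 3 (0.0397) and was lost without each other library, from 0.0604 without Stag2WT replicate 3 to 0.106 without Stag2WT replicate 1. Idh2, its mitochondrial counterpart, averaged 192.3 CPM in Stag2KO and 173.2 CPM in Stag2WT, at 0.15 on the log2 scale (95% interval -0.05 to 0.36). Tet2, which oxidises methylated cytosine, had 66.1, 69.9 and 67.8 CPM in Stag2KO, against 59.9, 49.3 and 61.0 CPM in Stag2WT. Its groups did not overlap, but at a log2 fold change of 0.26 (0.06 to 0.46) the adjusted p was 0.069. Dnmt3a, which sets new methylation, averaged 100.5 CPM in Stag2KO and 87.3 CPM in Stag2WT, a log2 fold change of 0.20 (0.01 to 0.40) with an adjusted p of 0.121. Both intervals lay just above 0 before adjustment. Of 11 other enzymes of DNA methylation, edgeR called 0 higher and 2 lower, with a median of -0.02, limma-voom likewise, and DESeq2 1 higher (Tet1) and 2 lower. Uhrf1, which brings the maintenance methyltransferase to replicated DNA, fell to 236.3 ± 14.0 CPM in Stag2KO, against 324.7 ± 21.1 CPM in Stag2WT (SD, n = 3 each; log2 fold change -0.46, adjusted p = 0.00502), and kept its call with each library left out. Idh3a, a mitochondrial dehydrogenase subunit, was at -0.30 (adjusted p = 0.0377), a call lost without Stag2KO replicate 1 (0.102), 2 (0.061) or 3 (0.111) or Stag2WT replicate 2 (0.0613). The maintenance enzyme Dnmt1 was at -0.09 and Tet3 at 0.07. Tet1 was at 0.43 (adjusted p = 0.0768), and it was called without Stag2WT replicate 3 (0.0356) and, on all 6 libraries, by DESeq2 (0.0362).

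Of the 6 splicing driver genes edgeR, DESeq2 and limma-voom each called 0, and 1, U2af1, had an unadjusted p under 0.05. Sf3b1, a subunit of the U2 particle that binds the branch point, was the steadiest of all driver genes between libraries: it averaged 709.5 ± 11.8 CPM in Stag2KO and 705.1 ± 5.83 CPM in Stag2WT (SD, n = 3 each). The interval of its log2 fold change of 0.01 ran from -0.14 to 0.15. Srsf2, which binds exonic enhancers, averaged 519.5 CPM in Stag2KO and 518.3 CPM in Stag2WT, a log2 fold change of 0.00 (95% interval -0.19 to 0.20). U2af1, which reads the last bases of the intron, was at -0.17 (-0.33 to -0.02, adjusted p = 0.1002), the farthest from 0 in the class. Zrsr2, which does so for minor introns, was at 0.09 (-0.09 to 0.28), the U5 protein gene Prpf8 at -0.06 (-0.24 to 0.13) and the helicase gene Ddx41 at -0.04 (-0.18 to 0.11). The 6 intervals together lay between -0.33 and 0.28. Summed over the 6 genes, the libraries held 2043 to 2124 CPM in Stag2KO and 2099 to 2147 CPM in Stag2WT, which overlap.

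Of 28 tested partners of these 6 genes, in 3 lists, 6 were called (21.4%), close to the 21.2% of all tested genes, so the count of calls sets nothing apart about them. Of 12 other genes for the U2 particle and the 3′ splice site, 10 had negative log2 fold changes and 7 an unadjusted p under 0.05. DESeq2 called 2 of the 12 lower, Phf5a and Sf3a3. With edgeR 1 was called lower and 0 higher, at a median of -0.14. It was Phf5a, a small subunit of the Sf3b complex, at -0.37 (adjusted p = 0.0439 in edgeR's quasi-likelihood test), and of the fits with a library left out the one without Stag2WT replicate 3 (0.0373) called it, with adjusted p in the others up to 0.127 without Stag2KO replicate 3. Of 8 other SR protein genes, 1 was higher and 2 lower, at a median of -0.13 and with 3 at an unadjusted p under 0.05. Srsf5 averaged 584.2 CPM in Stag2KO and 458.0 CPM in Stag2WT (adjusted p = 0.0357, log2 fold change 0.35), and its call was lost without Stag2KO replicate 1 (0.0652), 2 (0.0948) or 3 (0.0922) or Stag2WT replicate 3 (0.0669). Srsf9 averaged 60.1 CPM in Stag2KO and 75.6 CPM in Stag2WT (-0.33, adjusted p = 0.00806) and was called with each library left out. Srsf10 was at -0.35 (adjusted p = 0.0485) and was called without Stag2WT replicate 3 (0.0436) but in none of the other 5 such fits, with adjusted p up to 0.137 without Stag2KO replicate 3. Srsf10 also missed the threshold with upper-quartile scaling (0.0534), the filter of 5 CPM (0.0526) and limma-voom (0.0513). Of 8 other genes of the U5 and tri-snRNP particles, 2 were called lower, and 4 had an unadjusted p under 0.05. All 8 log2 fold changes were negative, with a median of -0.20. Txnl4a was at -0.43 (adjusted p = 0.024), lost without Stag2KO replicate 1 (0.0686), 2 (0.0595) or 3 (0.0661). Eftud2, a U5 GTPase, was at -0.22 (adjusted p = 0.0417), and leaving out any library ended the call, with adjusted p up to 0.151 without Stag2KO replicate 3. It was also lost with upper-quartile scaling (0.0527).

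Of the 7 signalling genes, Jak2 was called and was lower. Jak2 encodes the kinase that the erythropoietin receptor and other cytokine receptors use. It had 148.4, 164.5 and 162.7 CPM in Stag2KO, against 209.9, 178.6 and 197.0 CPM in Stag2WT, without overlap. The log2 fold change was -0.30 (SE 0.08, adjusted p = 0.0289 in edgeR's quasi-likelihood test). It was called without Stag2WT replicate 2 (0.0176) and lost without each other library, from 0.056 without Stag2KO replicate 2 to 0.0903 without Stag2KO replicate 1. Erythroid markers, which include receptor and globin genes, summed to 2664 to 3438 CPM in Stag2KO against 3507 to 5896 CPM in Stag2WT, and their part in the Jak2 value was not tested. Sh2b3, an adaptor that restrains Jak2, was at 0.07 (95% interval -0.12 to 0.25), and Calr, a chaperone of the endoplasmic reticulum, at 0.07 (-0.21 to 0.35). The RAS path driver genes were not called: Nras was at 0.14 (0.02 to 0.27, adjusted p = 0.1001), the phosphatase gene Ptpn11 at -0.11 (-0.25 to 0.03) and Nf1 at -0.01 (-0.23 to 0.21).

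Cbl, the ubiquitin ligase that turns off cytokine receptors, varied more between libraries than any other driver gene. It had 111.3, 95.2 and 64.7 CPM in Stag2KO, against 89.4, 59.5 and 112.2 CPM in Stag2WT. The libraries of each group spread widely and overlapped, so the log2 fold change of 0.05 came with an interval of -0.72 to 0.82. Within groups the SD of log2 CPM was 0.43 for Cbl, against 0.17 for Calr, the next widest, and a median of 0.09 over the driver genes. Among the 8131 genes that averaged 20 CPM or more, 157 (1.93%) spread more than Cbl. The whole interval lay within 0.5 of 0 on the log2 scale for the other 21 driver genes not called.

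Wider lists of these paths stayed near 0 as lists. The median log2 fold change was 0.03 over 21 tested genes of RAS signalling and 0.05 over 13 tested genes of JAK and STAT signalling.

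Neither p53 path gene was called by edgeR, DESeq2 or limma-voom, and 1 of the 2, Ppm1d, had an unadjusted p under 0.05. Trp53, which encodes p53, averaged 237.6 CPM in Stag2KO and 216.6 CPM in Stag2WT, a log2 fold change of 0.13 (95% interval -0.01 to 0.28). Ppm1d, a phosphatase that shuts p53 signalling down and is also a p53 target, averaged 33.9 CPM in Stag2KO and 40.1 CPM in Stag2WT, at -0.24 (-0.47 to -0.01, adjusted p = 0.117). Of 18 regulators and targets of p53, DESeq2 called 1 higher and 3 lower, Btg2 among the lower. With edgeR 1 was called higher and 2 lower, at a median of 0.02. Of all tested genes edgeR called 10.7% higher and 10.5% lower. The largest of these was Pmaip1, a cell death gene of the BCL2 family, which fell to 4.03 ± 0.90 CPM in Stag2KO, against 12.7 ± 0.30 CPM in Stag2WT (SD, n = 3 each; log2 fold change -1.65, SE 0.18, adjusted p = 0.00114 in edgeR's quasi-likelihood test). Sesn2, a stress sensor, averaged 10.7 CPM in Stag2KO and 18.1 CPM in Stag2WT (-0.76, adjusted p = 0.00509). Fas, a death receptor, averaged 8.51 CPM in Stag2KO and 4.40 CPM in Stag2WT (0.95, adjusted p = 0.0126). All 3 kept their calls with each library left out. The part of p53 in their values was not tested. The standard p53 target genes Mdm2 and Cdkn1a were at 0.10 and -0.19 and were not called.

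**Figure D4:**
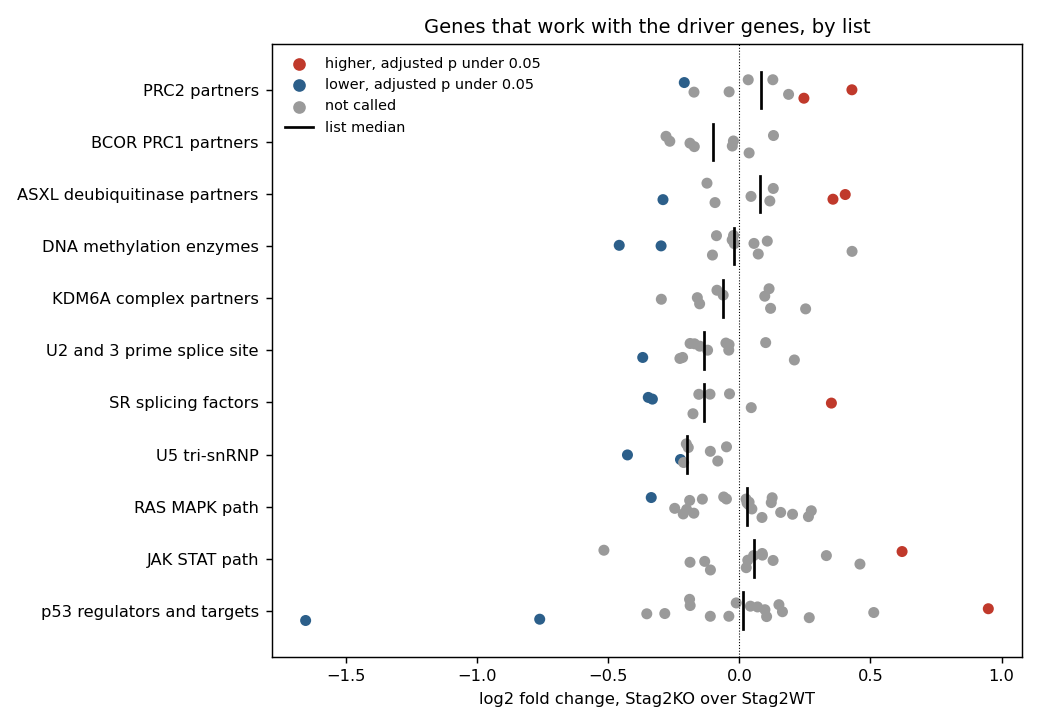
Log2 fold change of Stag2KO over Stag2WT for each tested gene of 11 lists of genes that work with the driver genes, with a bar at each list's median; red is called higher, blue called lower and grey not called. List medians lie between -0.20 for the U5 and tri-snRNP genes and 0.08, and Pmaip1 at -1.65 and Fas at 0.95 lie farthest from 0.

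The last class held the largest change. Etv6 encodes an ETS family repressor that stem cells need in adult marrow. Its promoter, at chr6:134035450-134035749 on the plus strand of GRCm38.p6, is shown because Etv6 was the driver gene with the largest change and the call that no left-out library ended.
Etv6: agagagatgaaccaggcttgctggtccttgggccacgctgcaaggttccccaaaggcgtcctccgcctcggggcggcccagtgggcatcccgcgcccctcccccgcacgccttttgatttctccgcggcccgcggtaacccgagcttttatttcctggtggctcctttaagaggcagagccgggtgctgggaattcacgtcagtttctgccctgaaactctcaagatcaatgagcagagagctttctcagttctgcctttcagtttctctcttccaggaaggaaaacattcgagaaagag
The window has no capitals because it held no match to the NF-Y or E2F letters, to the ETS letters CCGGAAG (8.86% of all promoters) or to GCGCATGC, the letters of NRF1 (2.71%), each searched on both strands.

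Etv6 had 263.6, 274.7 and 280.9 CPM in Stag2KO, against 179.7, 177.3 and 217.8 CPM in Stag2WT. The lowest Stag2KO library stood above the highest Stag2WT library, Stag2WT replicate 3, which itself stood apart from the other two of its group. Means were 273.1 ± 8.75 CPM in Stag2KO and 191.6 ± 22.7 CPM in Stag2WT (SD, n = 3 each), a log2 fold change of 0.51 (SE 0.09, adjusted p = 0.00637 in edgeR's quasi-likelihood test). With each library left out in turn the log2 fold change stayed between 0.46 and 0.61 and the adjusted p between 0.00425 and 0.0242. Npm1, the nucleolar chaperone of ribosome assembly, went the other way. It had 1032, 1148 and 1078 CPM in Stag2KO, against 1252, 1439 and 1323 CPM in Stag2WT. The groups did not overlap, and the log2 fold change was -0.30 (SE 0.08, adjusted p = 0.039). It was called without Stag2WT replicate 1 (0.0443) and lost without each other library, from 0.0612 without Stag2KO replicate 2 to 0.125 without Stag2KO replicate 3. A gene on the opposite strand overlaps Etv6, Asxl2, Ezh2, Suz12, Eed and Ddx41 in the GENCODE M21 annotation, and since the sources used here do not give the strand setting of the counting, reads from either strand there cannot be told apart. Those that overlap Etv6 and Asxl2 had rows of their own, at a mean of 0.415 CPM for Gm17089 in Stag2KO and 0.239 CPM in Stag2WT, and 3.96 CPM for 1110002L01Rik in Stag2KO and 3.72 CPM in Stag2WT.

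Read ratios of 4 pairs of related genes did not overlap between the genotypes. A ratio of 2 genes within a library does not depend on how libraries are scaled, and the pairs were chosen after their values were seen. The Ezh2 to Ezh1 read ratio was 2.51, 2.78 and 2.28 in the Stag2KO libraries, against 3.76, 4.73 and 4.25 in the Stag2WT libraries. The Idh1 to Idh2 ratio was 0.471, 0.381 and 0.459 in Stag2KO, against 0.739, 0.607 and 0.517 in Stag2WT. Both ratios were lower in every Stag2KO library, with log2 differences of -0.75 and -0.51. The Bcor to Bcorl1 ratio was 3.35, 4.23 and 3.93 in Stag2KO, against 3.02, 2.70 and 2.64 in Stag2WT. The Asxl1 to Asxl2 ratio was 1.40, 1.29 and 1.35 in Stag2KO, against 1.19, 1.11 and 1.15 in Stag2WT. Both of these were higher in every Stag2KO library, with log2 differences of 0.46 and 0.23. For each of the 4 pairs the two-sided exact permutation p was 0.1, the smallest that 3 against 3 libraries allow, and it was also 0.1 after adjustment over the 4. The first gene of each pair had already been called without overlap. Neither p-value counts that choice, so the ratios are no separate support for a difference.

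**Figure D5:**
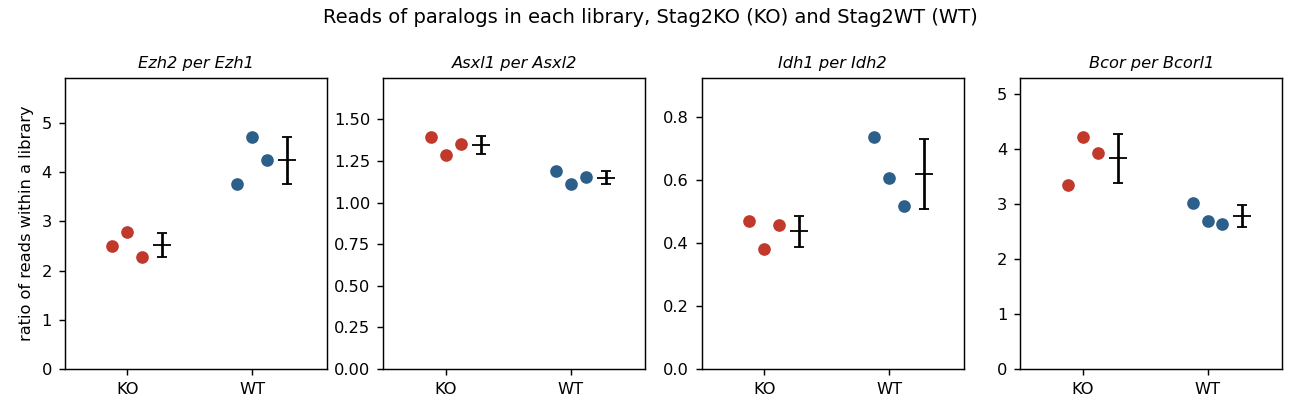
Read ratio of 4 pairs of related genes in each library, 1 panel per pair on a linear axis from 0, with Stag2KO libraries left of Stag2WT libraries and the mean with its SD beside each group. Ezh2 to Ezh1 and Idh1 to Idh2 lie lower in all 3 Stag2KO libraries, and Asxl1 to Asxl2 and Bcor to Bcorl1 lie higher.

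Genes of DNA replication and cell division moved in the same direction as the lower PRC2 genes, Npm1 and Uhrf1. Of 9 such genes, 7 were called lower and 0 higher by edgeR's quasi-likelihood test, with a median log2 fold change of -0.37. Among all tested genes 10.5% were called lower. The 9 were looked up after the values were seen, so their count is no test of a shared direction. They summed to 4260 to 4620 CPM in Stag2KO, against 5230 to 5806 CPM in Stag2WT. The helicase gene Mcm2 was at -0.41 (adjusted p = 0.0173), a call lost without Stag2KO replicate 3 (0.0622). The sliding clamp gene Pcna was at -0.43 (adjusted p = 0.0253), a call lost without Stag2KO replicate 2 (0.0769) or 3 (0.0818) or Stag2WT replicate 2 (0.059). Mcm3 and Top2a, also called lower, were called without Stag2WT replicate 1 (0.032 and 0.0392) and lost without each other library. Each of the 7 calls was lost without some library. The proliferation marker Mki67 was at -0.18 and was not called by edgeR (adjusted p = 0.125), while DESeq2 called it lower (0.0459). The part of cell division in the values of Ezh2, Suz12, Eed and Npm1 was not tested.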

How the data were processed

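Gene reads were compared between 3 Stag2KO and 3 Stag2WT libraries of lineage-depleted mouse marrow, grouped by the genotype in the labels. The authors deposited raw read counts per gene symbol, whole numbers with no normalization. STAR 2.4, HTSeq 0.6.1 and DESeq2 with build mm9 are named per the submitters' processing notes. Not given in the sources used here were the annotation, the strand setting and the library kit for these samples. Counter totals with no gene name stayed out of library sizes: reads in no annotated gene were 8.81% to 12.8% of a library's table total.

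The test was run on the counts with edgeR 4.0.16 in R 4.3.3 (TMM scaling, filterByExpr defaults, robust quasi-likelihood fit, genotype as the term) and Benjamini-Hochberg adjustment over 15708 genes, and an adjusted p under 0.05 was called. The fit was tested on simulated data with larger changes than those of the called driver genes. That does not show how often changes of their size are found. Levels per length used merged exon lengths of GENCODE M21 on GRCm38 in place of the planned RefSeq lengths, so they are approximate for counts made on mm9. Of 227 listed partner and marker genes, 7 were found under older symbols. Promoters came from RefSeq, with 29 of 32 matched. Libraries of a group differed beyond counting noise, at 22.6 to 47.1 chi-square units per degree of freedom, and counting errors and limits at 0 reads cover counting only.

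The driver genes and partner lists were chosen with earlier results of these data known. The naming rule took all 32 driver genes, Stag2, up to 3 called genes per direction of each partner list, and Ezh1, Dnmt1, Tet1, Tet3, Mdm2 and Cdkn1a whatever their result; some genes it named are not reported here. Read-ratio pairs and replication genes were chosen after their values were seen, as were overlapping genes and further list members named beside counts. Alternatives were other scalings and filters, DESeq2 1.42.0, limma-voom of limma 3.58.1, the share of unannotated reads as a covariate, and each library left out.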

Additional observations from a re-analysis of the deposited data

Results flagged for a closer look

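Reads that fell in no annotated gene took a larger share of the table total in Stag2KO libraries, at 11.1%, 12.8% and 11.2%, against 8.84%, 8.81% and 10.1% in Stag2WT libraries, a difference of 2.47 percentage points. It was singled out as a signal outside the gene counts that is higher than in the Stag2WT libraries. The two-sided exact permutation p was 0.1, the smallest that 3 against 3 libraries allow. The groups did not overlap in this share, so a fit with both as terms hardly separates it from genotype. Its part in the values of the driver genes was not tested.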

How the results depend on the processing

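Stag2 was lower in every alternative run. Of the driver genes, 3 were called higher in every alternative but the covariate fit and those that left out a library, and 6 were called lower, or 5 with upper-quartile scaling (without Suz12, adjusted p = 0.0569) and with limma-voom (without Eed, 0.052). With each library left out in turn, 1 to 3 were called higher, 1 to 2 lower, and 1967 to 2548 of all genes. With the share of unannotated reads as a covariate, which hardly separates from genotype because the groups do not overlap in it, edgeR called 67 of 15708 genes and 0 driver genes higher and 0 lower. In that fit the log2 fold changes were 0.30 for Etv6, 0.07 for Bcor, 0.18 for Asxl1, -0.34 for Ezh2, -0.28 for Suz12, -0.04 for Eed, -0.40 for Jak2 and -0.40 for Npm1. They took the opposite sign for Idh1 (0.0146), Idh2 (-0.016), Asxl2 (-0.13), Setd2 (-0.11), Sf3b1 (-0.0202), Zrsr2 (-0.0371), Ddx41 (0.0082), Cbl (-0.43), Calr (-0.0651), Ppm1d (0.0306), Tet1 (-0.14) and Tet3 (-0.15). Genes near 0 also changed sign: Srsf2 (-0.0028) with median-ratio size factors and DESeq2, and Nf1 (0.0023) with upper-quartile scaling. With a library left out, ranges that cross 0 were -0.0036 to 0.0853 for Asxl2, -0.0623 to 0.0623 for Srsf2, -0.001 to 0.0227 for Sf3b1, -0.106 to 0.0047 for Prpf8, -0.0731 to 0.0004 for Ddx41, -0.1581 to 0.2772 for Cbl, -0.0846 to 0.0351 for Nf1, -0.0328 to 0.1974 for Calr and -0.0102 to 0.1778 for Tet3. The causes were not tested, and calls lost in the covariate fit are no test of that share. No paired analysis was possible because the labels give the groups no shared replicate numbers. The lowest count of a tested driver gene in a library was 840 reads, with a counting error of 3.45%; the effect of depth on the calls was not tested.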
